A study of Mus musculus with 28 samples.

Results

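The genes described here encode subunits of the GABA-A receptor, the channel through which the transmitter GABA inhibits neurons. They are Gabra2, Gabra3, Gabra4 and Gabra5 for alpha subunits, Gabrb1 and Gabrb2 for beta subunits, and Gabrd for the delta subunit. They were taken as a list of symbols, chosen with earlier results of these data known, and matched to the Ensembl identifiers of a gene count table, 7 of the 50686 genes in it. All 7 were among the 16735 genes with enough counts to be tested. The table covers 28 RNA-seq libraries, all made from the dorsal hippocampus of C57Bl6 male mice. The Basal group (n = 4) had no conditioning and no treatment. The other groups went through auditory fear conditioning, in which a tone comes to predict a shock, and were labelled by treatment as Vehicle (n = 4), Cort (n = 5), RU486 (n = 5), C108 (n = 5) or C118 (n = 5). The series describes these treatments as ligands of the glucocorticoid receptor. Cort is the usual short form of corticosterone, the main glucocorticoid hormone of mice, and RU486 is mifepristone, an antagonist of that receptor. C108 and C118 are known here by code name only. The sources used here give no dose, time of dosing or age. Because every treated mouse was also conditioned and no Basal mouse received vehicle, the effects of conditioning and of handling or vehicle cannot be told apart.

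A GABA-A receptor is a ring of subunits around a chloride channel, most often built from alpha and beta subunits with a gamma or a delta subunit. The alpha subunit sets much of the receptor's pharmacology and place on the neuron: alpha2 is found at synapses on principal cells, alpha5 is typical of hippocampal pyramidal neurons and lies largely outside synapses, and alpha4 joins with delta in receptors outside synapses that carry a steady inhibitory current in dentate granule cells. In the forebrain, delta and beta2 subunits are also abundant in relay neurons of the thalamus, alpha2 is scarce there, and alpha3 is found in the neocortex. Receptors with a delta subunit are sensitive to neurosteroids, which are made from the same precursors as adrenal steroids.

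Gabrb2 was the gene of the list whose level passed the test between conditioned and Basal libraries, so the sequence before its first RefSeq start is shown here. The glucocorticoid receptor binds DNA as a pair of molecules at a palindrome, AGAACA, then 3 bases of any kind, then TGTTCT, each partner contacting AGAACA or its reverse complement TGTTCT. In the first line below, chr11:42420190-42420439 on the plus strand (RefSeq, GRCm38.p6), the capitals mark TGTTCT and a TATAAA match, which begin 150 and 30 bases before the start. The second line is chr11:42421009-42421038 on the plus strand, before the last RefSeq start, and the capitals mark AGAACA, which begins 180 bases before that start.
Gabrb2 first start: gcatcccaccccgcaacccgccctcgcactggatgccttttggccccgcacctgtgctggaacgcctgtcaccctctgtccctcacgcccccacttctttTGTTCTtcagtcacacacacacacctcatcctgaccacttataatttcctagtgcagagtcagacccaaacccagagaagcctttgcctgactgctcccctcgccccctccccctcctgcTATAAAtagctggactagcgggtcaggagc
Gabrb2 last start: caactacctcctAGAACAgaaacttaccag
Both stretches lie inside the longer Gabrb2 gene model of the GENCODE M21 annotation and overlap none of its exons. Windows from 250 bases before to 50 bases after a start were found for 6 of the 7 genes (10 windows), and for Gabrd none was used. Both strands were searched. AGAACA or TGTTCT, which is also each end of the palindrome, occurred in 2 of these 10 windows, both of Gabrb2, and in 19% of all 32851 RefSeq windows. The full palindrome occurred in 0 of the 10 and in 3 of all windows (0.00913%). TATAAA or its reverse complement TTTATA was present in 3 of the 10 windows, 1 of Gabrb2 and both of Gabra3, against 13.6% of all windows. The Gabra3 windows overlap and hold the same match. TGACGTCA, the cAMP response element, was present in 1.79% of all windows and GCGTGGGCG, bound by the EGR factors, in 0.612%, and each was in 0 of the 10. The windows of Gabra2 (70% G and C, 25 CG pairs) and the first of Gabrb1 (66%, 25 CG pairs) were rich in CG pairs, and those of Gabra3 (43% and 39.3%) held 0, beside medians over all windows of 52.7% and 7 pairs. These matches describe the letters in the windows only.

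In the genome (GRCm38, the same build as mm10), 3 of the genes lie in a cluster on chromosome 5. Gabra2 (70957597 to 71095849, minus strand) is followed by Gabra4 (71569749 to 71658308, minus strand) and Gabrb1 (71658113 to 72149037, plus strand). Gabra4 and Gabrb1 start head to head and overlap by 196 bases, of which 46 are exonic in both. Gabra5 is on chromosome 7 (57407672 to 57510059, minus strand), where it shares 148 exonic bases with the antisense gene Gm9962. Gabrb2 is on chromosome 11 (42419757 to 42629028, plus strand), Gabrd on chromosome 4 (155384980 to 155398112, minus strand) and Gabra3 on chromosome X (72432681 to 72656848, minus strand). The libraries were stranded, but the sources used here do not give the strand setting of the counting, so reads in the overlapping stretches could not be assigned with certainty.

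Gene counts summed to between 16.24 M and 20.3 M in a library (M, 1000000 counts), and no library of a group matched another within sampling noise. Nothing in the labels says that each library came from a separate mouse, so p-values measure the spread between libraries. Markers of the dentate gyrus, CA1 and CA3 were detected in every library, as were those of thalamus and neocortex, which border the dorsal hippocampus. Among 44 markers of these 5 regions, 0 stood at 0 in any library. In Vehicle library 16 the 11 thalamus markers summed to 788 CPM (counts per 1000000, on library sizes scaled by the TMM method), against 182 to 242 in Basal, and the 8 CA1 markers to 365 CPM, against 725 to 907. In Vehicle library 29 the 9 neocortex markers summed to 239 CPM (169 to 210 in Basal) and the 9 dentate gyrus markers to 427 CPM (689 to 783 in Basal). Results that rest on these libraries are given with and without them.

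Gabra5 had the most RNA per length. In CPM per kilobase of exon, means over the 28 libraries were 106 ± 12.2 (SD) for Gabra5, 33.2 ± 3.93 for Gabra2, 25.3 ± 2.30 for Gabra4, 22.9 ± 3.22 for Gabrb2, 16.6 ± 2.09 for Gabrb1, 12.5 ± 3.77 for Gabra3 and 9.17 ± 2.20 for Gabrd. The lowest Gabra5 library, at 69.97, was above the highest Gabra2 library, at 43.3, so that no library placed another gene of the list first. Further down the order neighbours overlapped: Gabra4 (20.4 to 31.8) with Gabrb2 (14.6 to 29.1), and Gabra3 (9.10 to 29.8) with Gabrd (6.82 to 17.04). The plot of levels by library shows the values behind the comparisons.

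**Figure D1:**
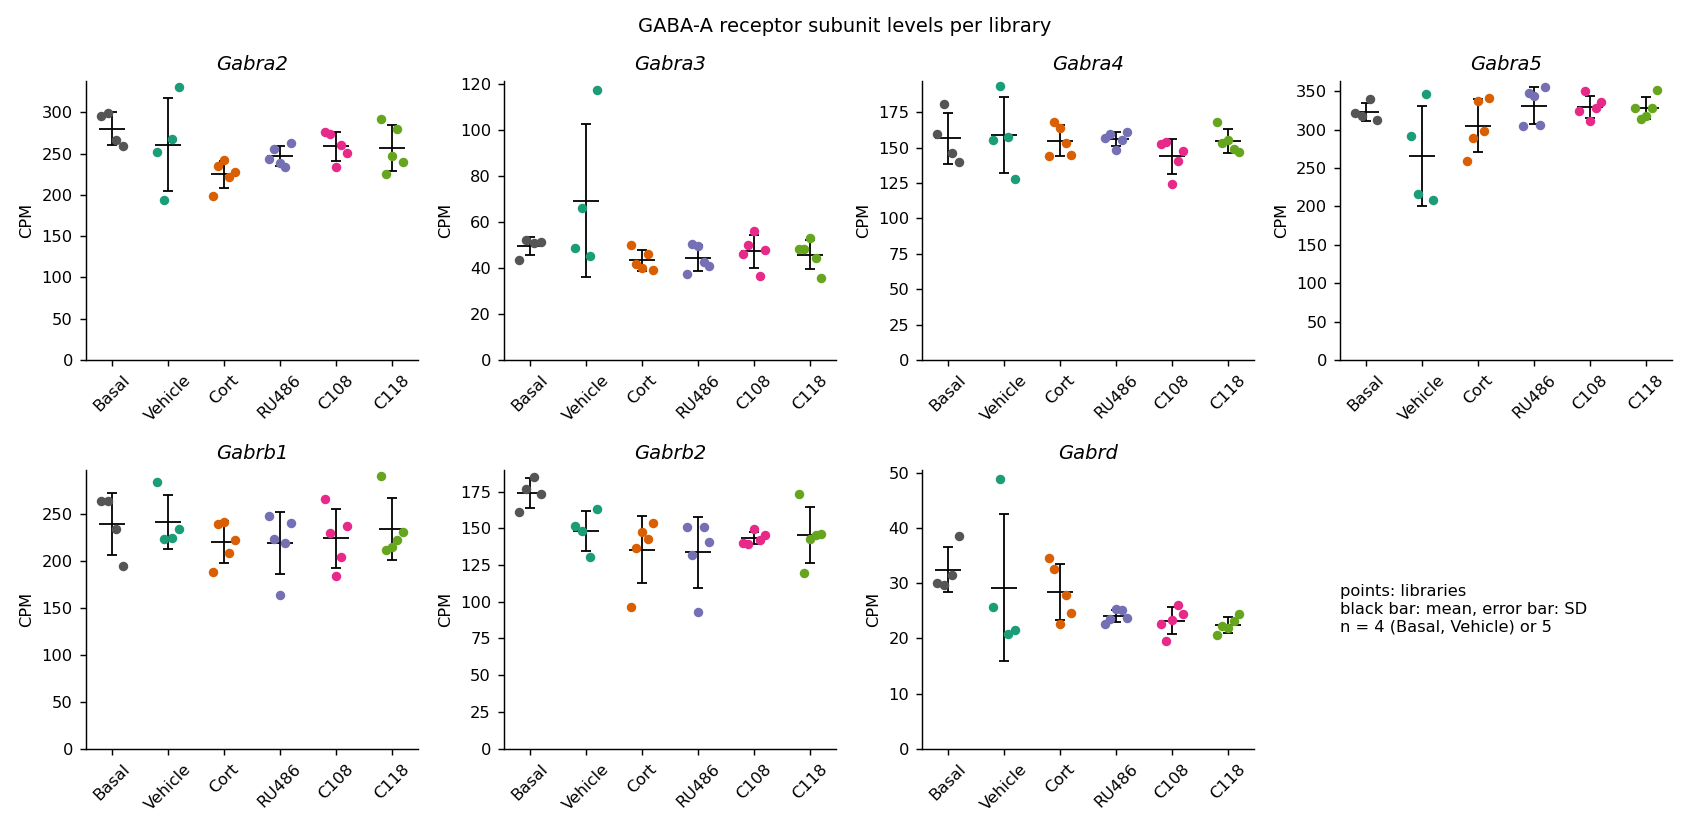
Level of each GABA-A receptor subunit gene in CPM (vertical axes, from 0) in the 28 libraries, by group. Points are libraries, and black bars are means with SD. Gabrb2 was highest in Basal (161 to 185 CPM), Gabra3 had 1 library at 117 CPM in Vehicle, and Gabrd had 1 at 49.0 CPM in Vehicle.

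Conditioned libraries as a whole had less Gabrb2 RNA than Basal libraries. Gabrb2, which encodes the beta2 subunit, stood at 161, 177, 185 and 173 CPM in Basal libraries 1, 9, 14 and 27. It stood at 151, 148, 130 and 163 CPM in Vehicle libraries 3, 16, 23 and 29. In the 24 conditioned libraries it ran from 92.8 through a median of 144 to 173 CPM, and 22 of them were under the lowest Basal library. The exceptions were Vehicle 29 (163 CPM) and C118 7 (173 CPM). The mean of the 5 conditioned groups differed from Basal by -0.30 ± 0.09 on the log2 scale (SE, 95% interval -0.50 to -0.11), with an adjusted p of 0.0342 by edgeR's quasi-likelihood test with Benjamini-Hochberg adjustment over all tested genes. In bulk tissue, fewer cells that use a gene and less RNA per cell cannot be told apart.

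That call depended on the Basal group. Without Basal 1, 9, 14 or 27 in turn the difference in Gabrb2 was -0.34, -0.30, -0.28 and -0.31, and the adjusted p became 0.0649, 0.0783, 0.148 and 0.0825. With scores of thalamus and neocortex markers in the model it was -0.27 (adjusted p = 0.152), with dentate gyrus and CA1 scores -0.26 (0.128), and with all 5 region scores -0.15 (0.902). Each left the direction in place and the call was lost. With all 5 region scores the call of Kctd16, a gene described below, was lost too, although its difference did not shrink. The Gabrb2 difference did shrink there, from -0.30 in the main fit to -0.15. A call lost in that model does not by itself show that a difference is absent. Why the calls were lost was not tested.

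By treatment, Gabrb2 was lowest in RU486, at 151, 132, 92.8, 151 and 141 CPM in libraries 6, 12, 19, 25 and 32. In Cort libraries 4, 11, 17, 30 and 36 it stood at 96.5, 137, 148, 143 and 154 CPM. C108 libraries 8, 21, 26, 34 and 39 were the most alike, at 140, 140, 149, 142 and 146 CPM. None of these 3 groups overlapped Basal, although Cort 4 and RU486 19 lay well under the rest of their groups. In C118 libraries 7, 13, 20, 33 and 38 the values were 173, 120, 143, 146 and 147 CPM, and only C118 7 reached the Basal range.

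Against Basal, Gabrb2 differed by -0.38 ± 0.12 in RU486 (SE, log2, adjusted p = 0.0555 by edgeR), by -0.36 ± 0.12 in Cort (0.0669), by -0.28 ± 0.12 in C108 (0.166), by -0.26 ± 0.12 in C118 (0.234) and by -0.23 ± 0.13 in Vehicle (0.343). All 5 estimates were negative and none passed the threshold of 0.05. DESeq2 called Gabrb2 in RU486 (adjusted p = 0.0325) and in Cort (0.0479). With edgeR, leaving out RU486 19 brought the call for Cort (0.0248), and leaving out Cort 4 or RU486 6 the call for RU486 (0.0309 and 0.0429). The comparisons share the Basal libraries, so their likeness is no independent evidence.

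Gabrd, the delta subunit of receptors outside synapses, had no difference that passed the test, and 1 Vehicle library stood far above the others. It stood at 30.1, 29.8, 31.6 and 38.5 CPM in Basal 1, 9, 14 and 27. Vehicle 3, 16, 23 and 29 had 25.7, 49.0, 20.9 and 21.5 CPM, so that Vehicle 16 was the highest of all 28 libraries and the rest of its group lay under every Basal library. Cort 4, 11, 17, 30 and 36 had 34.7, 32.5, 22.7, 27.98 and 24.7 CPM, which overlapped Basal.

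Gabrd did not overlap Basal in the 3 remaining groups. RU486 6, 12, 19, 25 and 32 had 22.6, 23.6, 25.4, 25.1 and 23.7 CPM. C108 8, 21, 26, 34 and 39 had 22.6, 19.6, 23.4, 26.1 and 24.5 CPM, and C118 7, 13, 20, 33 and 38 had 20.7, 22.3, 21.8, 23.1 and 24.5 CPM. In all, 21 of the 24 conditioned libraries were under the lowest Basal library, and the exceptions were Vehicle 16, Cort 4 and Cort 11. Those 3 libraries had thalamus marker scores of 2.33, 1.05 and 0.997, and Basal scores ran from -0.24 to 0.40 (the score is the mean log2 CPM of the markers, each centred on all libraries). Vehicle 3 and Cort 30 also had high scores, 1.24 and 0.858, with Gabrd under every Basal library.

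The difference of the conditioned mean from Basal was -0.36 ± 0.13 for Gabrd (SE, log2, 95% interval -0.63 to -0.09), which did not pass (adjusted p = 0.0761 by edgeR). Without Vehicle 16 it was -0.43 and passed (adjusted p = 0.00103), and it also passed over the 4 ligand groups alone (-0.41, 0.0422), with thalamus and neocortex scores in the model (-0.31, 0.0376) and with dentate gyrus and CA1 scores (-0.50, 0.00783). It did not pass with all 5 region scores (-0.19, 0.856). Leaving out Basal 27, the highest Basal library, gave -0.26 (0.282).

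Group by group against Basal, Gabrd differed by -0.53 ± 0.17 in C118 (SE, log2, adjusted p = 0.0696), by -0.48 ± 0.17 in C108 (0.0828), by -0.43 ± 0.17 in RU486 (0.121), by -0.19 ± 0.17 in Cort (0.568) and by -0.15 ± 0.18 in Vehicle (0.719). Although Vehicle 16 is in none of the ligand groups, the fit shares 1 estimate of spread over all libraries, and without it the C118, C108 and RU486 differences for Gabrd were -0.53, -0.48 and -0.43 with adjusted p-values of 0.00408, 0.00735 and 0.0162. The Vehicle difference without it was -0.52 (0.0141). DESeq2 on all libraries called Gabrd in C118 (0.0399).

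Gabra2, the alpha2 subunit of synapses on principal cells, was lowest in Cort. It stood at 295, 299, 267 and 260 CPM in Basal 1, 9, 14 and 27, and at 199, 235, 242, 222 and 227 CPM in Cort 4, 11, 17, 30 and 36. Every Cort library was under every Basal library. In Vehicle 3, 16, 23 and 29 it was 252, 194, 268 and 331 CPM, and these libraries held both the lowest and the highest level of the study. The RU486, C108 and C118 libraries ran from 233 to 262, 234 to 276 and 225 to 292 CPM and overlapped Basal.

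For Gabra2 the Cort group differed from Basal by -0.32 ± 0.10 (SE, log2, adjusted p = 0.0568 by edgeR). Without Vehicle 16 or Vehicle 29 the adjusted p was 0.0201 and 0.0223 at an unchanged difference of -0.32, and DESeq2 gave 0.0369. With thalamus and neocortex scores in the model the Gabra2 difference was -0.22 (0.219). The other differences from Basal ran from -0.18 ± 0.10 in RU486 to -0.10 ± 0.11 in Vehicle, and the conditioned mean differed by -0.17 ± 0.08 (adjusted p = 0.186).

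Gabra3, which encodes the alpha3 subunit, was steady in most groups and high in a pair of Vehicle libraries. It stood at 43.5, 52.3, 51.0 and 51.2 CPM in Basal 1, 9, 14 and 27. Vehicle 3, 16, 23 and 29 had 48.5, 65.8, 45.01 and 117 CPM. Vehicle 29 was more than all other libraries, with Vehicle 16 next, and the ligand groups together ran from 35.7 CPM in C118 38 to 56.0 CPM in C108 26.

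Against Basal, Gabra3 in Vehicle differed by 0.48 ± 0.19 (SE, log2, adjusted p = 0.169 by edgeR), and by 0.10 without Vehicle 29 (0.816). With thalamus and neocortex scores in the model it passed (0.00557). In RU486 against Basal, Gabra3 passed in 1 of 11 settings other than leaving out a single library (0.0312). Against Vehicle it differed by -0.68 ± 0.18 in Cort (0.167), -0.65 ± 0.18 in RU486 (0.252), -0.55 ± 0.18 in C108 (0.144) and -0.59 ± 0.18 in C118 (0.303). DESeq2 called the Cort difference of Gabra3 (adjusted p = 0.0426). Without Vehicle 23, the lowest Vehicle library for Gabra3, edgeR called all 4 (-0.83, -0.80, -0.71 and -0.75, adjusted p from 0.0194 to 0.0267). Without Vehicle 29 they were -0.30, -0.27, -0.17 and -0.21 with adjusted p-values from 0.561 to 0.965. In that library the neocortex marker score was 0.71, the highest of the study, and the dentate gyrus score was -0.73, the lowest.

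Gabra5, the alpha5 subunit of hippocampal pyramidal neurons, was low in the same pair of Vehicle libraries. It stood at 322, 317, 340 and 312 CPM in Basal 1, 9, 14 and 27, and at 291, 217, 346 and 208 CPM in Vehicle 3, 16, 23 and 29. All ligand libraries lay between 259 CPM (Cort 4) and 355 CPM (RU486 32), above Vehicle 16 and Vehicle 29 and overlapping Basal. Vehicle differed from Basal by -0.28 ± 0.11 (SE, log2, adjusted p = 0.149 by edgeR), and by -0.02 without Vehicle 16 and 29 (0.98). With thalamus and neocortex scores in the model Gabra5 passed in Vehicle against Basal (0.00957). It also passed there between conditioned and Basal libraries.

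For the ligand groups against Vehicle the Gabra5 differences were 0.32 ± 0.10 in RU486 (adjusted p = 0.333), 0.31 ± 0.10 in C108 (0.143), 0.30 ± 0.10 in C118 (0.384) and 0.20 ± 0.10 in Cort (0.461). Without Vehicle 23 the differences in RU486, C108 and C118 were 0.47, 0.47 and 0.46 and passed (0.00897, 0.00658 and 0.0108), as did Vehicle against Basal for Gabra5 (-0.44, 0.00982). Without Vehicle 16 and 29 they were 0.06, 0.05 and 0.04.

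Gabra4 and Gabrb1, neighbours on chromosome 5, showed no difference past the threshold in any of these comparisons. Gabra4, the alpha subunit that joins with delta, ran from 140 to 181 CPM in Basal and from 124 to 194 CPM in the conditioned libraries, and its conditioned mean differed from Basal by -0.03 ± 0.07 (SE, log2, 95% interval -0.17 to 0.12). Vehicle 16 was its highest library. Gabrb1, the beta1 subunit, ran from 195 to 264 CPM in Basal and from 164 to 291 CPM in the conditioned libraries, with a difference of -0.07 ± 0.10 (95% interval -0.27 to 0.13).

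Counted over the list, 1 of the 7 genes passed between conditioned and Basal libraries, when 11.2% of all tested genes passed (6.29% lower). That share is near the background. All 7 estimates were below 0, with a median of -0.07 beside 0.01 over all tested genes, and 3 of the 7 had an unadjusted p under 0.05, beside 25.4% of all genes. DESeq2 and limma-voom also called 1, Gabrb2. In the comparison of single groups with Basal, edgeR called 0 of 7 in Vehicle (background 4.11%), Cort (6.27%), RU486 (5.45%), C108 (6.04%) and C118 (3.87%), with 2 unadjusted in each, beside 18.1%, 19.5%, 22%, 21.8% and 18.9% of all genes. limma-voom called 0 in each, and DESeq2 called 0, 2, 1, 0 and 1.

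Groups lay wholly under Basal for 2 of the 7 genes in Cort (Gabra2 and Gabrb2), when 5.35% of all genes did, for 2 in RU486 (Gabrb2 and Gabrd, 6.07%), for 2 in C108 (Gabrb2 and Gabrd, 4.94%) and for 1 in C118 (Gabrd, 4.96%). In Vehicle 0 of 7 did (5.76%).

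Against Vehicle, edgeR called 0 of 7 genes in each ligand group. Few genes of any kind passed: 0.00598% in Cort, 0% in RU486, 0.215% in C108 and 0% in C118. At an unadjusted p under 0.05 there were 2, 2, 2 and 3 genes of the list, beside 11.6%, 8.16%, 17.4% and 8.01% of all genes. limma-voom called 0 in each, and DESeq2 called 1 in Cort (Gabra3) and 0 in the others. The plot of differences from Basal and from Vehicle shows that with Vehicle as the reference the Gabra3 intervals lay under 0 in every ligand group. Those of Gabra5 lay above 0 in RU486, C108 and C118 and crossed it in Cort (-0.01 to 0.41).

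**Figure D2:**
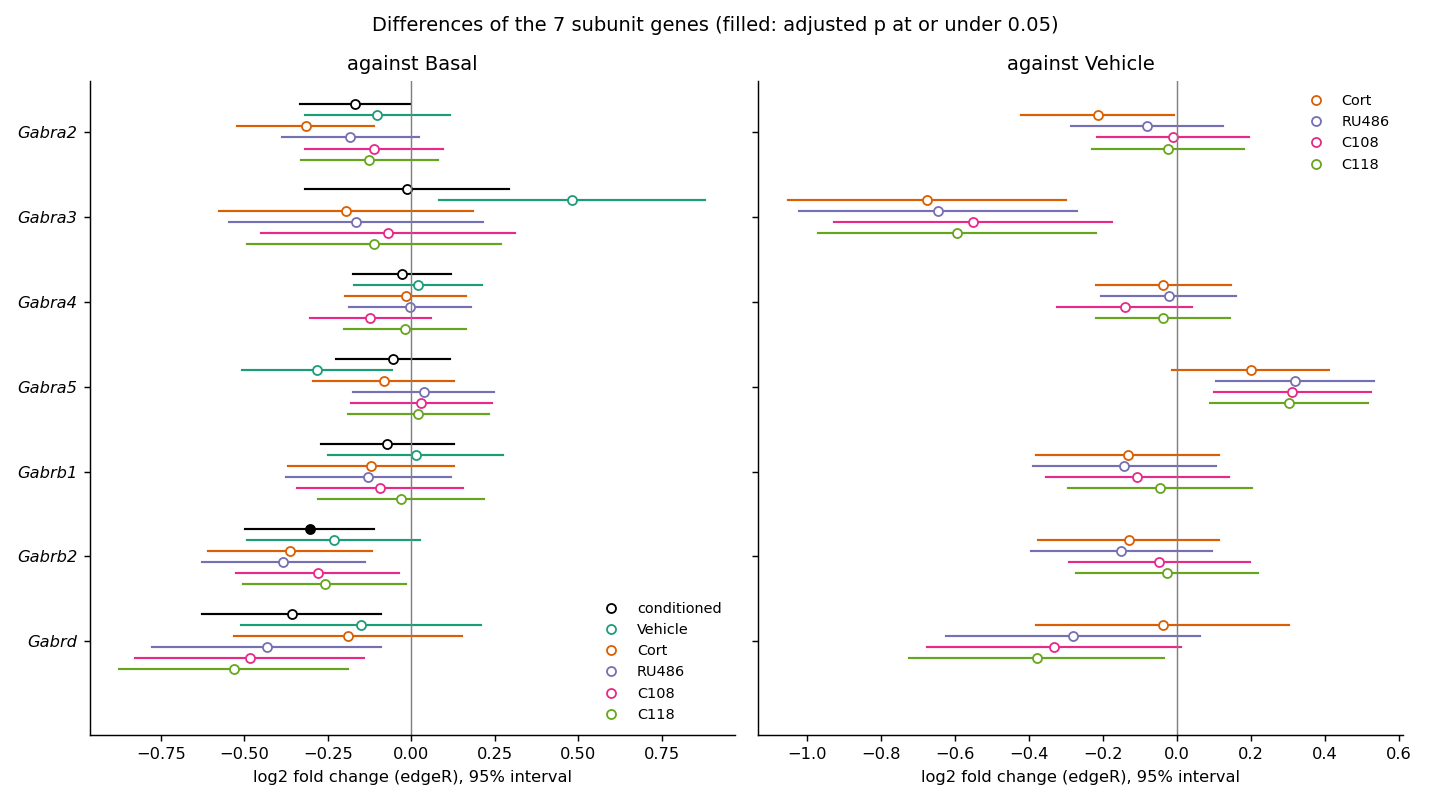
Log2 fold changes of the 7 genes with 95% intervals from edgeR, against Basal (left) and against Vehicle (right). Colours are groups, black is the mean of the 5 conditioned groups, and a filled point has an adjusted p at or under 0.05. The filled point is Gabrb2, conditioned against Basal, at -0.30.

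Between the 4 ligand groups, 6 pairs were compared, and 0 of 7 genes were called in each by edgeR, DESeq2 and limma-voom. Between Cort and RU486 0.0538% of all genes passed, and 0% in the other 5 pairs. The lowest unadjusted p-values were those of Gabrd in Cort against C118, 0.34 ± 0.16 (SE, log2, 95% interval 0.02 to 0.67, unadjusted p = 0.0405, adjusted p = 0.999), and of Gabra2 in Cort against C108, -0.20 ± 0.10 (95% interval -0.40 to -0.01, unadjusted p = 0.041, adjusted p = 0.988). Gabrd in Cort against C108 differed by more than Gabra2, at 0.29 ± 0.16 (95% interval -0.03 to 0.62). The first 2 were the only differences between ligand groups with an unadjusted p under 0.05, when 5.34% of all genes had one in Cort against RU486, 4.88% in Cort against C108, 4.26% in Cort against C118, 5.74% in RU486 against C108, 1.83% in RU486 against C118 and 2.4% in C108 against C118. C108 and C118 differed by -0.10 (Gabra4) to 0.05 (Gabrd), and the widest interval, that of Gabra3, ran from -0.32 to 0.40. These intervals allow differences of that size between the code-named ligands, and no dose is known to match them by.

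A single test of any difference between the 6 groups called 0 of 7 genes (background 4.73%, with 4 of 7 at an unadjusted p under 0.05, beside 18.6% of all genes), with the lowest adjusted p for Gabra3 (0.119) and Gabrd (0.161). Between the 5 conditioned groups it also called 0 (background 0.108%, with 2 of 7 unadjusted, beside 8.53% of all genes), with Gabra3 at 0.295. limma-voom called 0 in both. In the first test Gabrd passed without Vehicle 16, Gabra3 without Vehicle 3, and Gabra3 and Gabra5 without Vehicle 23. Those last 2 also passed the second test without Vehicle 23.

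Within groups, levels of the genes moved together or apart between libraries. Pearson's r and Spearman's rho were computed over all 28 libraries after subtracting each group's mean log2 CPM, for 21 pairs, with permutation p-values from 100000 resamples adjusted over the pairs. Gabra2 and Gabrd had opposite deviations, r = -0.75 (p = 0.00085, adjusted 0.0178) and rho = -0.64 (p = 0.00097, adjusted 0.0144). Without Vehicle 16 and 29, the libraries farthest from the median of Gabra2, r was -0.54. In the 24 conditioned libraries alone it was -0.75.

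The pairs closest to it were Gabrb1 with Gabrb2, r = 0.58 (adjusted p = 0.0528, rho = 0.46, adjusted 0.0698), Gabra4 with Gabrb1, r = 0.50 (0.0528, rho = 0.61, adjusted 0.0144), and Gabra2 with Gabrb1, r = 0.47 (0.0528, rho = 0.60, adjusted 0.0144), by permutation. For the first, r fell to 0.27 without C118 7 and RU486 19, and so rested in part on them. For the other pairs r was 0.73 and 0.64 without Vehicle 16 and 29. Gabra2 with Gabra4 changed sign, from -0.15 to 0.70, when those 2 libraries were left out. Over the other 26 libraries the neighbours Gabra2, Gabra4 and Gabrb1 thus deviated in the same direction. Whether this was particular to neighbours was not tested. Over the same libraries Gabrb2, on chromosome 11, had r = 0.62 with Gabrb1, 0.40 with Gabra2 and 0.22 with Gabra4. Gabra3 and Gabra5 had r = -0.65 (adjusted permutation p = 0.142), -0.42 without Vehicle 23 and 29, and -0.30 without Vehicle 16 and 29.

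**Figure D3:**
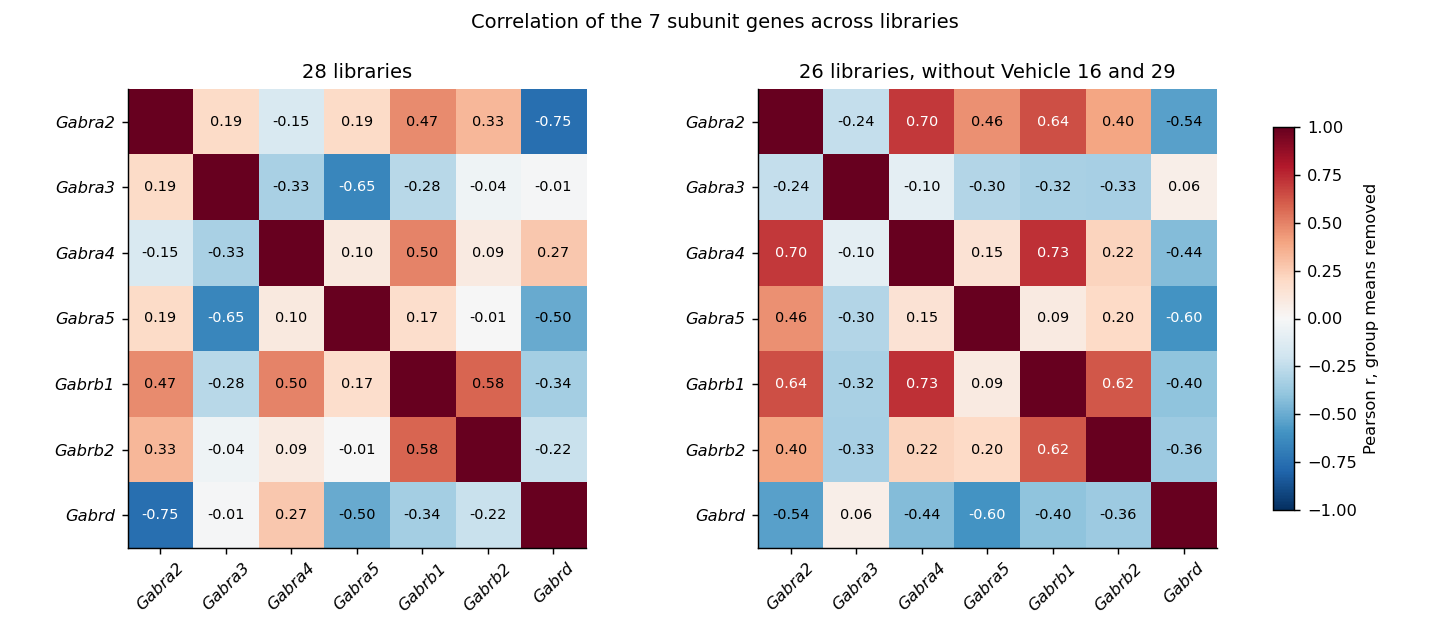
Pearson's r between the 7 genes after removing group means, over 28 libraries (left) and without Vehicle 16 and 29 (right). Red is positive and blue negative. Gabra2 with Gabrd was -0.75 and -0.54, and Gabra2 with Gabra4 went from -0.15 to 0.70.

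Several of the genes varied with markers of the tissue next to the hippocampus. Each gene was set against the marker scores of 5 regions, 35 pairs, a test added after the data were seen. Gabrd was higher where the thalamus score was higher, r = 0.81 (adjusted permutation p = 0.0156) and rho = 0.60 (adjusted 0.0265), and r was 0.66 without Vehicle 16 and 29. Gabra2 went the other way, r = -0.67 (adjusted 0.0391), with rho = -0.52 (adjusted 0.0574) and r = -0.34 without these libraries, on which the relation therefore rested.

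Gabra3 was higher where the neocortex score was higher, r = 0.80 (adjusted permutation p = 0.0119) and rho = 0.68 (adjusted 0.0103). For this pair r was 0.62 without Vehicle 23 and 29 and 0.56 without Vehicle 16 and 29. Gabra3 was lower where the CA3 score was higher, r = -0.73 (adjusted 0.037) and rho = -0.71 (adjusted 0.0103), and r was -0.72 without Vehicle 16 and 29. Its relation to the dentate gyrus score was r = -0.71 (adjusted 0.0231) and rho = -0.64 (adjusted 0.016), and r was -0.50 without C108 21 and Vehicle 29. The Gabra5 relation to the neocortex score, r = -0.77, did not pass (adjusted 0.0688), and r was -0.33 without Vehicle 16 and 29. For Gabrb2 the values of r lay between -0.20 and 0.34 over all libraries and none passed. The value of 0.34, with the dentate gyrus score, became 0.56 without Vehicle 16 and 29, for which no p-value was computed.

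Region scores also differed between the groups. The neocortex score averaged 0.30 in Basal and 0.17 in Vehicle, and from -0.17 to -0.04 in the ligand groups, and all 4 Basal libraries (0.12 to 0.48) were above every ligand library. The thalamus score averaged 0.45 in Cort and -0.49 in C108. The dentate gyrus score averaged 0.19 in Basal, -0.26 in Vehicle, 0.14 in Cort, -0.07 in RU486, 0.05 in C108 and -0.06 in C118. Markers of interneurons (11 genes), the main source of GABA, did not separate the groups, with summed levels of 552 to 663 CPM in Basal and 550 to 772 CPM over the conditioned libraries. Endothelial marker scores averaged 0.64 in Basal and 0.23, -0.09, 0.02, -0.42 and -0.20 in Vehicle, Cort, RU486, C108 and C118. Choroid plexus markers summed to 4334 and 2675 CPM in RU486 6 and 25, against 33.7 to 287 CPM in Basal. The part of these 2 marker lists in the differences of the 7 genes was not tested. How far the makeup of the dissected tissue accounts for the group differences was tested only through the models with region scores given above.

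**Figure D4:**
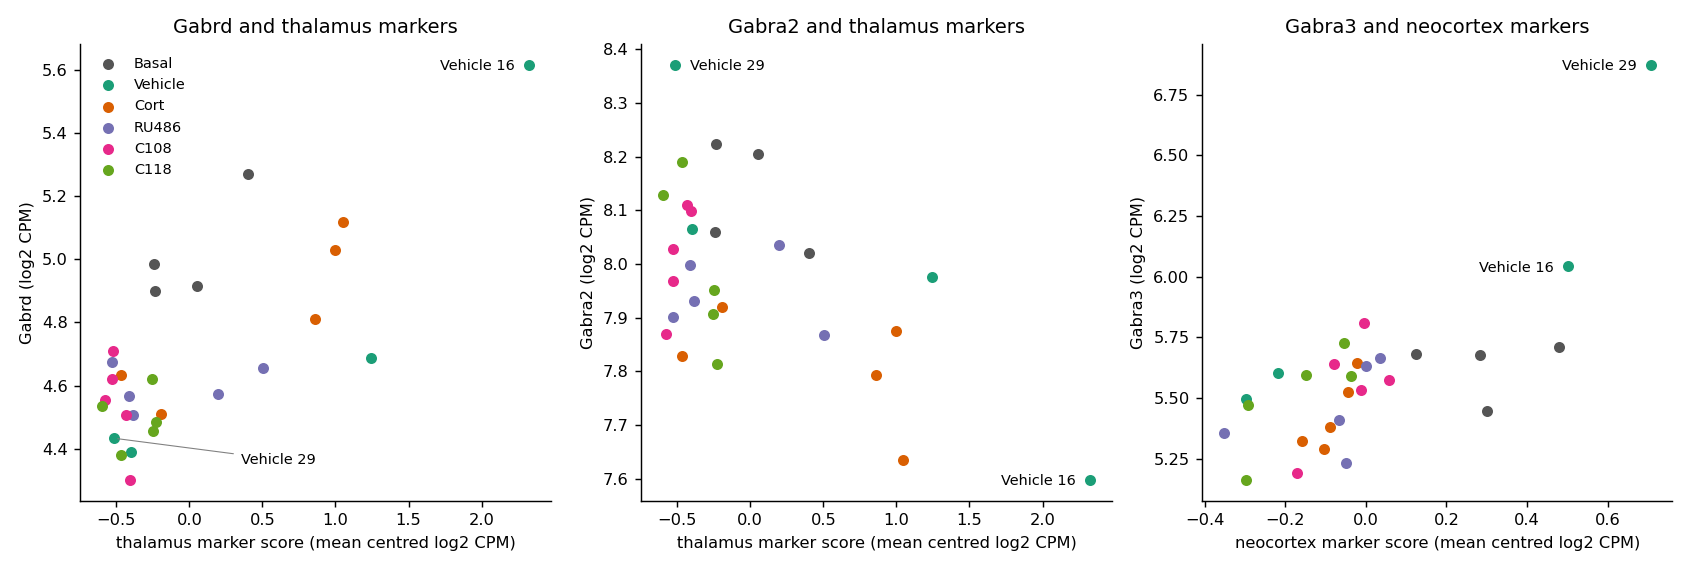
Log2 CPM of Gabrd and Gabra2 against the thalamus marker score and of Gabra3 against the neocortex marker score, 1 point per library, coloured by group, with group means not removed. Vehicle 16 has the highest thalamus score (2.33) with the highest Gabrd, and Vehicle 29 has the highest neocortex score (0.71) with the highest Gabra3.

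For each gene the 3 tested genes most like it were found by Pearson's r of log2 CPM over the 28 libraries, as a description. Those of Gabra2 were Grm5, a metabotropic glutamate receptor (0.88), Chl1, a cell adhesion protein (0.86), and Dgkb, a diacylglycerol kinase (0.84). Those of Gabra5 were Kcnab1 (0.90), Lpl, lipoprotein lipase (0.89), and Kcnd2, a potassium channel (0.88), at 0.65, 0.76 and 0.63 without Vehicle 16 and 29. Those of Gabra3 were Cplx3, a complexin (0.88), Nap1l5 (0.84) and Tmtc4 (0.84), at 0.53, 0.54 and 0.64 without them.

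Gabrd was most like Vav3 (0.85), Cthrc1 (0.82) and Adamts15 (0.81), with Vav3 at 0.75 without Vehicle 16 and 29. The genes nearest to Gabrb2 were Gpr26, an orphan receptor, Tcp11l1 and Jmjd4 (0.89 each), and to Gabrb1 Dnajb14 (0.91), Ubr3 (0.91) and Hook3 (0.90), and these hardly moved without the same libraries (0.89 to 0.93). Gabra4 had the weakest neighbours, Pdzd8 (0.72), Stxbp6 (0.71) and Sass6 (0.71).

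Of the other subunit genes, 12 were listed and 7 tested. Gabra6, the alpha6 subunit best known from the cerebellum, passed the test over 6 groups (adjusted p = 0.0399) at very low levels. It stood at 9.16 CPM in Vehicle 29 and at no more than 0.563 CPM in Basal. Among other libraries, leaving out Vehicle 29 (0.138) or any Basal library (0.0514 to 0.085) ended the call for Gabra6, and limma-voom did not make it (0.403).

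Among 15 genes of the scaffolds and traffic of inhibitory synapses, 1 fell between conditioned and Basal libraries (background 6.29% lower), Slitrk3, an adhesion protein of these synapses (-0.28 ± 0.08, SE, log2, adjusted p = 0.0193 by edgeR). It was lost without Basal 1, 14 or 27 (0.0935, 0.111 and 0.0955) and with dentate gyrus and CA1 scores (-0.15, 0.238). In Vehicle against Basal, Slitrk3 differed by -0.42 (0.0175), and this call was lost without Basal 1, 14 or 27 or Vehicle 29 (0.0573 to 0.0776). In Cort against Basal, Plcl1, a protein that binds the receptor's beta subunits, rose by 0.39 ± 0.12 (0.0395), and this call was lost without Basal 9, 14 or 27 or Cort 30 or 36 (0.0683 to 0.123). Of 3 chloride transport genes 1 fell (background 6.29%), the chloride channel gene Clcn2 (-0.27 ± 0.09, 0.0414), a call that leaving out any of 17 of the 28 libraries ended. Of 8 genes for GABA synthesis and transport, edgeR called 0 between conditioned and Basal libraries, with 2 unadjusted, and DESeq2 and limma-voom called 0 there. In other comparisons, DESeq2 called Abat and Aldh5a1 in Vehicle against Basal, Slc6a13 in C108 against Basal and Slc6a11 in C108 against Vehicle, and limma-voom called Abat in Vehicle against Basal.

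For the GABA-B receptor, the metabotropic receptor of GABA, 1 of 5 genes fell (background 6.29%). This was Kctd16, an auxiliary subunit, which averaged 16.2 ± 1.38 CPM in Basal (SD, n = 4) and 9.71 ± 2.17 CPM in the 24 conditioned libraries, all of which were under every Basal library (-0.75 ± 0.16, SE, log2, adjusted p = 0.00245 by edgeR). Of all tested genes, 4.94% (C108) to 6.07% (RU486) lay wholly under Basal in a single group. The share that did so over all 24 conditioned libraries is not given here. Kctd16 passed in each of the 28 fits that left out 1 library, and not with all 5 region scores (-0.82, 0.717). Against Basal, Kctd16 also passed in Vehicle (-0.89, 0.0188), RU486 (-0.83, 0.0199) and C118 (-0.75, 0.0407). These calls were lost on leaving out single libraries: Basal 14, Basal 27 or Vehicle 29 for Vehicle, Basal 1, 14 or 27 for RU486, and 9 of the 28 libraries for C118 (adjusted p up to 0.11). In Cort against Basal, DESeq2 and limma-voom also called Kctd16, while edgeR called none of the 5 genes (lowest adjusted p 0.0533). In C108 against Basal no tool called it.

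Of 5 genes of neurosteroid synthesis 1 fell (background 6.29%). Akr1c14, which encodes an enzyme that makes neurosteroids active at GABA-A receptors, averaged a low 1.23 ± 0.388 CPM in Basal (SD, n = 4) and 0.552 ± 0.266 CPM in the conditioned libraries (SD, n = 24) (-1.17 ± 0.31, SE, log2, adjusted p = 0.0117 by edgeR, and 0.111 without Basal 1). Against Basal, Akr1c14 passed in C108 (-1.50, 0.0314), a call lost without Basal 1, 14 or 27 or C108 26, 34 or 39 (0.0654 to 0.14).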

How the data were processed

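Raw counts for each Ensembl gene were deposited by the authors. The submitters' processing notes name HTSeq 0.6.1, FastQC, MultiQC and the build mm10, while the sources used here do not give the aligner, annotation or strand setting. Per the labels' protocols, the libraries were stranded, paired-end and made from enriched mRNA. The table has 5 rows that name no gene, which held 12.6% to 19.7% of all counts in a library and were left out, and 310 genes with no symbol.

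Genes were kept with filterByExpr of edgeR (minimum count 10, minimum total 15), which left 16735. All 28 libraries entered 1 quasi-likelihood fit of edgeR 4.0.16 (TMM, robust, 22 residual degrees of freedom, biological coefficient of variation 0.133) in R 4.3.3, with 15 comparisons of pairs of groups, the mean of the 5 conditioned groups against Basal, and 2 tests over groups at once. Tests were two-sided, adjusted by Benjamini-Hochberg over all tested genes, with a threshold of 0.05. For log2 CPM a prior count of 2 was added. At this depth the spread between libraries, not counting noise, limits the precision of the 7 genes. Between libraries of a group, chi-square per degree of freedom was never below 5.55. The script was tested on simulated counts.

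Alternatives were DESeq2 1.42.0, limma-voom (limma 3.58.1), RLE scaling, no filter or a mean of at least 5 CPM, only the groups compared, covariates (sample number, region scores), and leaving out libraries. The model with 5 region scores, the mean of 4 ligand groups, the correlations with region scores and the pair correlations without Vehicle 16 and 29 were added after the data were seen. The 7 genes, the gene lists and the markers were chosen with earlier results of these data known. Besides the 7, the rule named up to 4 passing genes per list and the 3 most similar genes of each. Positions and exon lengths came from GENCODE M21, and promoter windows from RefSeq (GRCm38.p6). One result among the other subunit genes is not reported here.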

Additional observations from a re-analysis of the deposited data

Results flagged for a closer look

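In each of the 42 sets of values (7 genes in 6 groups) the highest and lowest library were compared with the rest by Dixon's gap over range, and 3 sets had a library past the 95% critical value (0.829 for 4 libraries, 0.71 for 5). Chance flags about 1 in 20 groups. Gabrd in Vehicle 16 stood at 49.0 CPM, the other Vehicle libraries at 20.9 to 25.7 CPM. Gabrb1 in C118 7 stood at 291 CPM, the others of its group at 212 to 231 CPM. Gabra3 in Basal 1 stood at 43.5 CPM, under the other Basal libraries at 51.0 to 52.3 CPM. The Vehicle 16 value of Gabrd came with the highest thalamus marker score of the study (2.33). For the other values no cause was tested.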

How the results depend on the processing

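Over 18 comparisons and the pair correlations, 702 counts of called genes or correlated pairs were recomputed, of which 51 moved. Of 4834 single gene values under alternatives, 4693 were called or not called as before, 93 lost a call, 48 gained one and 0 called values reversed. Those 4693 include 202 uncalled values that changed sign. The number of the 7 genes called was 3 for Vehicle against Basal with thalamus and neocortex scores (Gabra3, Gabra5 and Gabrd). For Cort against Basal it was 2 with DESeq2 and 1 with the 5 CPM filter, with only the groups compared, with sample number and without Vehicle 16 and 29. For RU486 against Basal it was 2 with dentate gyrus and CA1 scores and 1 with the 5 CPM filter, DESeq2, only the groups compared, sample number and without Vehicle 16 and 29. For C108 against Basal it was 2 with only the groups compared and 1 with dentate gyrus and CA1 scores and without Vehicle 16 and 29. For C118 against Basal it was 1 with DESeq2, only the groups compared, dentate gyrus and CA1 scores and without Vehicle 16 and 29. For Cort against Vehicle it was 1 with DESeq2. For conditioned against Basal it was 2 with thalamus and neocortex scores (Gabra5 and Gabrd), over the 4 ligand groups and without Vehicle 16 and 29 (Gabrb2 and Gabrd each), and 0 with 5 region scores. The test over 6 groups called 1 without Vehicle 16 and 29. Leaving out each library in turn gave 0 to 1 for the 5 comparisons of a group with Basal and for Cort against Vehicle, and 0 to 2 for the other ligands against Vehicle, for conditioned against Basal and for both tests over groups. The number of correlated pairs, 1, became 5 without removing group means, 4 with RLE scaling and 5 without Vehicle 16 and 29. These recounts used fewer resamples than the main count. The pairs close to the threshold in the main count (adjusted permutation p = 0.0528) had r of 0.469, 0.497 and 0.579. With RLE scaling these were 0.477, 0.509 and 0.582. The causes were not tested. Tests over groups were not run in DESeq2. No paired analysis was possible because no number in the titles occurs in more than 1 group.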
